A study of Mus musculus with 12 samples.

Results

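The cytosolic ribosomal protein genes are the genes for the proteins of the ribosome that works in the cytoplasm, as opposed to the mitochondrial one. Members were the protein-coding mouse genes whose symbol is Rpl or Rps with a number and, in some, a letter or a paralog suffix, plus Rpsa, Rplp0, Rplp1 and Rplp2. The rule gave 83 genes, 51 of the large subunit and 32 of the small subunit, among 51826 gene identifiers counted in forelimb and 55401 counted in the cultures. No expression value entered the rule. In each tissue 81 of the 83 had enough counts to be tested. Rpl10l had 0 counts in all 12 libraries, in which 3 counts would correspond to 0.0418 to 0.187 CPM, the counts scaled to a library of fixed size. Rpl3l had between 0 and 5 counts per library. Rps4l is annotated as a transcribed processed pseudogene and not as protein coding, and Rack1 and Fau, which also supply ribosomal components, fall outside the symbol rule. Such genes are described separately.

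Each ribosome contains a small subunit, which reads the messenger RNA, and a large subunit, which joins the amino acids, and nearly every ribosomal protein is needed in equal number. Cells keep the messages of these genes in a coordinated pool: many begin with a C followed by a run of pyrimidines, the TOP motif, through which mTOR signalling and the binding protein Larp1 set how well they are translated. Free Rpl5 and Rpl11, bound to 5S ribosomal RNA, can hold the p53 ligase Mdm2, which ties faults in ribosome assembly to p53. Impdh2 makes a precursor of guanine nucleotides, of which ribosomal RNA synthesis is a heavy user.

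The study removed Impdh2 conditionally in mouse. Forelimbs came from E12.5 embryos labelled Wt or Impdh2 Prx-cKO. Prx-driven Cre acts in limb mesenchyme, so other cell types of the limb keep the gene, and the whole forelimb was sequenced. Bone marrow cells of Wt or Impdh2 LysM-cKO mice, in which LysM-driven Cre acts in the myeloid lineage, were cultured for 3 days with L929 supernatant as the source of M-CSF, equivalent to 20 ng/ml, and then replated; the protocol gives 40 ng/ml of RANKL, spelled RNAKL, as the stimulus. The culture titles R40D3 and R0D3 are not spelled out by the labels, and all 8 culture libraries carry the same cell type, osteoclast, and the same treatment label, osteoclast differentiation. Each of the 6 groups had 2 libraries, so no exact test of 2 against 2 can reach 0.05, and no label says whether the libraries came from separate animals. Ages of the marrow donors and the full alleles are not given in the sources used here.

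Library totals were 28892215 to 69466572 counts in forelimb and 16009146 to 19221865 in the cultures. Impdh2 was at 260 and 272 CPM in the Wt forelimbs and at 170 and 199 CPM in Prx-cKO, a log2 fold change of −0.53 that did not pass the test (adjusted p = 0.443, edgeR quasi-likelihood test). In the cultures Impdh2 fell by 1.73 at R40D3 (adjusted p = 0.0386) and by 1.81 at R0D3 (adjusted p = 0.0323) on the log2 scale. None of the 8 limb mesenchyme markers was at 0 in the forelimbs. The 11 osteoclast markers summed to 13272 to 38999 CPM at R40D3 and to 325 to 471 CPM at R0D3, with Calcr at 0 in all 4 R0D3 libraries, so the R0D3 libraries go against the cell type label, while the 7 macrophage markers summed to 6252 to 8460 CPM in all 8 culture libraries. In these bulk samples, fewer cells of a type and less RNA per cell cannot be told apart.

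The TOP motif was looked for at the annotated starts of the members and found at a minority of them. RefSeq start windows on GRCm38.p6 were found for 63 members. Of these, 13 (20.6%) had a C followed by at least 4 pyrimidines exactly at an annotated start, against 813 of 27025 genes (3.01%) in the same table, on the gene's own strand only. Within 5 bases of the start the shares were 29 of 63 (46%) and 5718 genes (21.2%). The windows below run from 15 bases before the start to 15 from it on; capitals mark the run at the start. Rps6 is shown as the textbook target of the mTOR kinase cascade, and the others stand for members described later: Rplp2 for the stalk, Rps27 for the paralog comparison, Rpl35a (1 of its 3 annotated starts) for R0D3 and Rpl38 for the forelimb replicates.
Rps6, chr4:86857353-86857382, minus strand: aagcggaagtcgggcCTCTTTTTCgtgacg
Rplp2, chr7:141447636-141447665, plus strand: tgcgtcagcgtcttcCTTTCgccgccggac
Rps27, chr3:90213634-90213663, minus strand: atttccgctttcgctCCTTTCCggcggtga
Rpl35a, chr16:33056467-33056496, plus strand: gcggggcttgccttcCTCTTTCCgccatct
Rpl38, chr11:114668565-114668594, plus strand: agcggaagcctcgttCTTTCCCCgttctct

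By contrast, the annotated starts of Rplp0, Rpl27 and Rps23, on which several results turn, hold no such run, so their windows carry no capitals. The absence says only that these letters are not at the annotated position. Within 5 bases of the start, Rps23 had a run of 6 letters and counts among the 29 members above. The longest there was 2 in Rplp0 and 3 in Rpl27.
Rplp0, chr5:115559452-115559481, plus strand: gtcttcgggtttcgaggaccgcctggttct
Rpl27, chr11:101442230-101442259, plus strand: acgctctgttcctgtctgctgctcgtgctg
Rps23, chr13:90923107-90923136, plus strand: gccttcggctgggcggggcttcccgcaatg

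In forelimb the members were among the strongly counted genes, from 175 CPM for Rps27l to 3613 CPM for Rplp0, a protein of the large-subunit stalk, apart from Rpl39l at 0.402 CPM (means of 4 libraries). Per kilobase of transcript the highest mean levels were those of the stalk protein Rplp1 (4021 CPM per kb), the small-subunit protein Rps14 (3536) and the large-subunit protein Rpl23a (3287). The lowest above 1 CPM were those of Rpl7l1 (151 CPM per kb), Rps20 (283) and Rpl29 (316). The value for Rps20 rests on the longest transcript of any member, 3706 bases. In the cultures the median over the 81 members was 176 CPM, and the range ran from 0.416 CPM for Rpl29 to 1193 CPM for Rplp0, with 9 members under 10 CPM and 32 under 100 CPM. The highest levels per kilobase were those of Rps14 (1077 CPM per kb), Rplp1 (972) and Rps15 (940). At the other end, among members above 1 CPM, stood Rps13 (4.11 CPM per kb), Rpl5 (5.54) and Rpl39l (6.20), so a protein of the 5S particle stood beside a paralog of restricted expression.

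**Figure D1:**
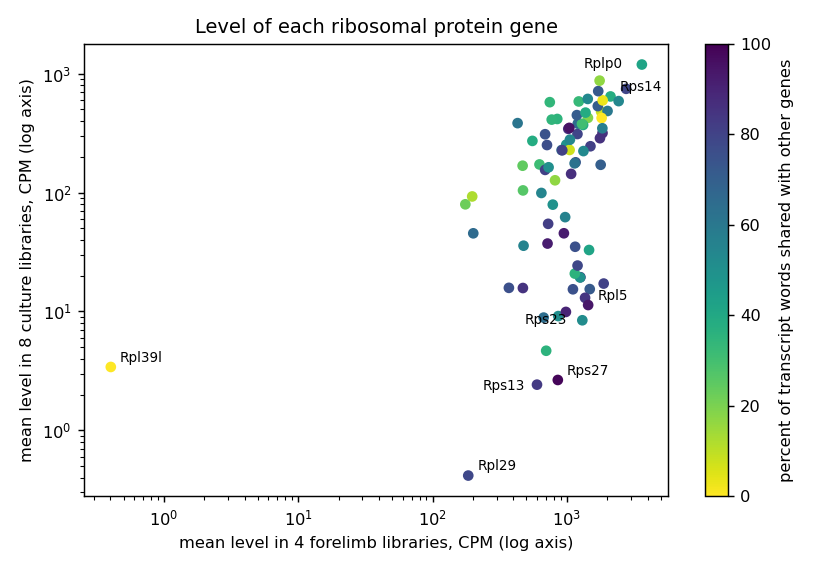
Mean level of each of the 81 tested members in forelimb (x axis, CPM, log scale) and in the cultures (y axis, CPM, log scale), coloured by the percent of the transcript's 50-base words that also occur in other annotated transcripts. Rps27, Rps13 and Rpl5 lie far below most members in the cultures and among them in forelimb.

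In the cultures, the members whose sequence recurs most elsewhere in the annotation had the lowest median level, with exceptions in both directions. Ribosomal protein genes have left many processed pseudogenes in the mouse genome. Among the 27 members with over 75% of their 50-base words in other transcripts, the median culture level was 37.2 CPM, against 253 CPM for the 43 members with 25 to 75% and 228 CPM for the 11 with less than 25%. The forelimb medians of the same classes were 1042, 1145 and 1047 CPM. Across the 81 members the culture minus forelimb difference in log2 level went with the shared percent at Spearman's rho −0.46 and Pearson's r −0.46, a description over genes that share their libraries. Rps27 had 98.6% of its words in other transcripts, Rpl5 93.8%, Rps13 83.0% and Rpl29 78.5%. Other members, picked after their values were seen, went against this pattern. Rpl35 (95.1% shared) was at 350 CPM in the cultures and Rps2 (79.0%) at 745 CPM. Rps29 (35.8%) was at 4.67 CPM there and Rpl39l (0%) at 3.41 CPM. The forelimb and culture tables hold different sets of identifiers and were made separately, so levels between them mix tissue and table, which cannot be told apart.

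Relative to the members' own counts, pseudogenes named after a member took more in the cultures. Their share of all counts overlapped between the tissues, at 0.0644% to 0.289% in forelimb and 0.138% to 0.193% in the cultures. Of the 60 members with a named pseudogene in the culture tables, 11 had pseudogenes with more counts than the member itself, up to 12.8 times as many. In forelimb this held for 0 of 59 members, and the highest ratio was 0.126. In the cultures, fold changes of the members with large shared percents are therefore uncertain.

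**Figure D2:**
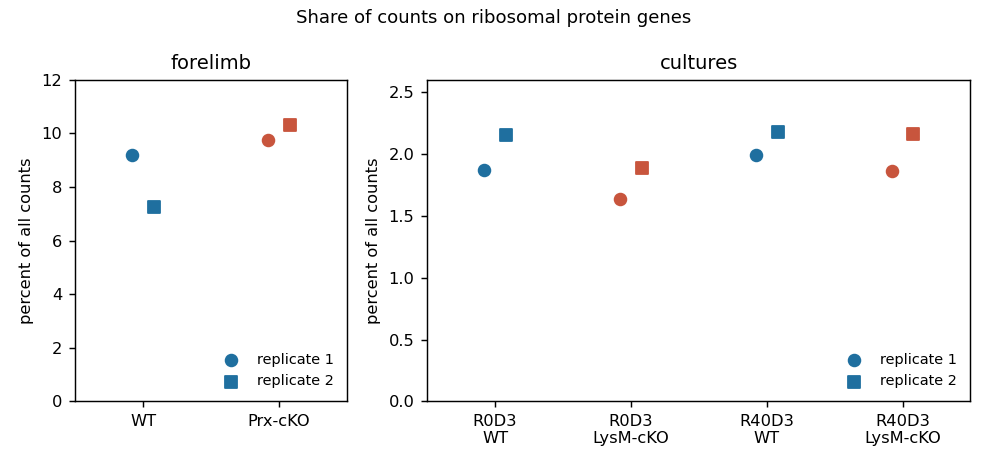
Share of each library's counts that fell on the 83 members (y axis, percent), by group (x axis), in forelimb and in the cultures, with circles for replicate 1 and squares for replicate 2, blue for Wt and red for knockout. Both Prx-cKO forelimbs lie above both Wt forelimbs, while the Wt and LysM-cKO culture libraries overlap within each culture group.

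The members together took 9.19% and 7.24% of the counts in the Wt forelimbs and 9.74% and 10.3% in Prx-cKO, means of 8.22% ± 1.38 (SD, n = 2) and 10.0% ± 0.411 (SD, n = 2). The groups did not overlap, but replicate 1 of Wt lay nearer to the Prx-cKO libraries than to its own replicate. In the cultures the shares were 1.87% and 2.15% for Wt and 1.64% and 1.88% for LysM-cKO at R0D3. At R40D3 they were 1.99% and 2.17% for Wt and 1.86% and 2.16% for LysM-cKO. These culture groups overlapped at both R0D3 and R40D3.

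The forelimb comparison asked what loss of Impdh2 from limb mesenchyme does to the transcriptome. Ribosomal protein messages were mostly higher in Prx-cKO, and no single member passed the test. Of the 81 members, 77 had a log2 fold change above 0, against 47.2% of all genes tested. The median was 0.35, against −0.03 over all genes. The large subunit (46 of 49 higher, median 0.35) and the small subunit (31 of 32 higher, median 0.34) gave nearly the same values.

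edgeR's quasi-likelihood test called 0 of 81 members and 0 of the 19987 genes tested (0%) at an adjusted p under 0.05. At an unadjusted p under 0.05 there were 10 members, all higher (12.3%, against 5.87% of all genes in that direction). DESeq2 called 1 member, Rplp0 (adjusted p = 0.0069), and 393 of the 19987 genes, 2.44% of those that it gave an adjusted p. Prx-cKO and Wt libraries did not overlap for 45 members, all higher in Prx-cKO (55.6%, against 22.2% of all genes), and 0 members lay wholly lower, against 21% of all genes. Leaving out Wt replicate 2 brought the median to 0.12 with 55 of 81 members above 0, while leaving out Wt replicate 1 brought it to 0.55 with 5 members called.

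The ribosomal stalk recruits the elongation factors, and the stalk protein Rplp0 had the largest log2 fold change of the 81 members. Rplp0, the base of the stalk, located at chr5:115559467-115563727 on the plus strand of GRCm38, was at 2273 and 2675 CPM in the Wt libraries, against 4185 and 5319.9 CPM in Prx-cKO. The Prx-cKO libraries were both above the Wt libraries, a log2 fold change of 0.94 (SE 0.24, adjusted p = 0.415). Its partner Rplp1 was at 2071 and 1126 CPM in the Wt libraries, against 2372 and 2458 CPM in Prx-cKO, a log2 fold change of 0.60 (SE 0.32). Rplp2 was at 998 and 585 CPM in the Wt libraries, against 988 and 1078 CPM in Prx-cKO, a log2 fold change of 0.38 (SE 0.29), and its groups overlapped. For both acidic stalk proteins the spread between the Wt libraries was larger than the gap between the nearest libraries of the groups.

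Nearly as large was the value of Rps2, a small-subunit protein named here after its values were seen, with 1403 and 2381 CPM in Wt, then 2757 and 4497 CPM in Prx-cKO. Its log2 fold change was 0.94 (SE 0.37, adjusted p = 0.477), and the Wt libraries were far apart.

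Rpl27 and Rpl18, large-subunit proteins, had the next smallest p after Rplp0. Rpl27 was at 551 and 509 CPM in the Wt libraries, against 762 and 863 CPM in Prx-cKO, a log2 fold change of 0.62 (SE 0.16, adjusted p = 0.424). Rpl18 was at 501 and 529 CPM in the Wt libraries, against 732 and 989.6 CPM in Prx-cKO, a log2 fold change of 0.74 (SE 0.20, adjusted p = 0.437). In both, the Wt libraries lay close together and below both Prx-cKO libraries. The 5S particle proteins had smaller differences than Rpl27 and Rpl18, on either side of the members' median of 0.35. Rpl5 was at 1533 and 1120.1 CPM in the Wt libraries, against 1610.3 and 1493 CPM in Prx-cKO (log2 fold change 0.23), with overlapping groups. Rpl11 was at 1107 and 874 CPM in the Wt libraries, against 1177 and 1408 CPM in Prx-cKO (log2 fold change 0.38), with groups that did not overlap.

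The paralogs did not share 1 direction. Rps27l, known as a p53-responsive copy of Rps27, was at 155 and 104 CPM in the Wt libraries, against 194 and 248 CPM in Prx-cKO, a log2 fold change of 0.77 (SE 0.25, adjusted p = 0.452). Its counterpart Rps27 was at 1060.1 and 638 CPM in the Wt libraries, against 779 and 945 CPM in Prx-cKO, a log2 fold change of 0.02, with overlapping groups. Rpl7l1 and Rpl7 had log2 fold changes of 0.29 and 0.28. Rpl22l1 stood at −0.08 and Rpl22 at 0.10. Rpl39l, a paralog known from the testis, had 26 and 28 counts in Wt and 14 and 6 in Prx-cKO (log2 fold change −0.90, SE 0.78), and Rpl39 was at 0.12. The counterparts Rpl3, Rpl10 and Rps4x were at 0.54, 0.34 and 0.44. Rps4l, outside the rule, was at 0.67. No paralog or counterpart passed the test.

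The 4 members below 0 in forelimb were Rpl39l, Rpl29, Rpl22l1 and Rps24, the last at −0.05. Rpl29, a large-subunit surface protein, was at 217 and 208 CPM in the Wt libraries, against 263 and 49.4 CPM in Prx-cKO. The log2 fold change of −0.44 rests on Prx-cKO replicate 2, and without that library it was 0.31.

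**Figure D3:**
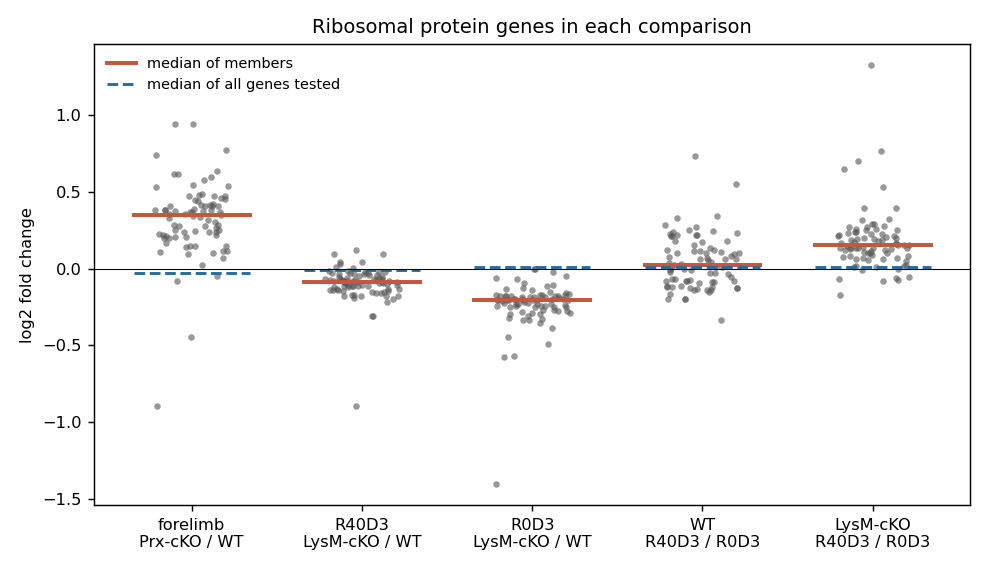
Log2 fold change of each of the 81 tested members (points) in the 5 comparisons (x axis), with the members' median as a red line and the median of all genes tested as a blue dashed line. The members lie mostly above 0 in forelimb (median 0.35) and all below 0 at R0D3 (median −0.20).

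The forelimb difference varied with the libraries compared. Prx-cKO replicate 1 exceeded Wt replicate 1 by a median log2 difference of 0.06, with 50 of 81 members higher, and Wt replicate 2 by 0.48, with all 81 higher. Prx-cKO replicate 2 exceeded Wt replicate 1 by 0.15 (58 higher) and Wt replicate 2 by 0.64 (79 higher). The Wt libraries themselves differed by a median of 0.46, with 71 of 81 members higher in replicate 1, while the Prx-cKO libraries differed by −0.11. The gap between the Wt libraries was thus larger than the median difference between the groups.

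**Figure D4:**
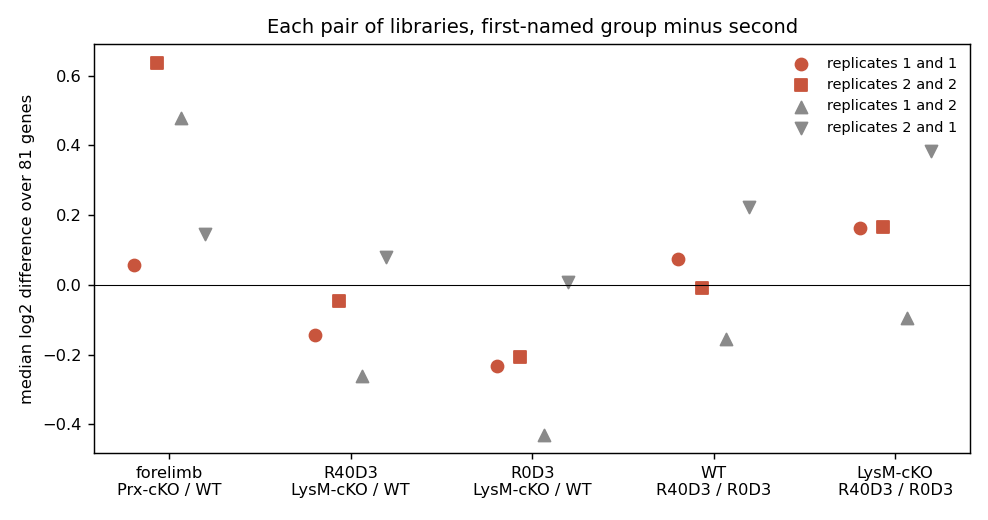
Median log2 difference over the 81 members (y axis) for each of the 4 pairings of a library of the first-named group with one of the second, by comparison (x axis), red for pairs with the same replicate number and grey for the others. In forelimb the pairs with Wt replicate 2 stand at 0.48 and 0.64 and those with Wt replicate 1 at 0.06 and 0.15.

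The gap between the Wt forelimbs was largest for the shortest messages. In the 27 members with transcripts of 271 to 570 bases the median Wt gap was 0.71, in the 27 of 577 to 851 bases 0.34, and in the 27 of 860 to 3706 bases 0.22. The Prx-cKO gaps in these classes were −0.12, −0.12 and −0.10. Over the 81 members the Wt gap went with log2 transcript length at Spearman's rho −0.62 and Pearson's r −0.54, a description over genes from the same libraries, and the Prx-cKO gap at −0.05 and −0.08. The members with the largest gaps, picked after their values were seen, were Rps29 (1043 and 287 CPM in Wt), Rps28 (499 and 197), Rpl38 (591 and 249) and Rps21 (551 and 269). Rpl38 belongs to the large subunit and the other 3 to the small one. With Rps27l, they are the members called higher in Prx-cKO when Wt replicate 1 was left out (2.84% of all genes were called there). The part of message length in the genotype difference was not tested. The median log2 fold changes of the 3 length classes, from shortest to longest, were 0.25, 0.37 and 0.38.

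**Figure D5:**
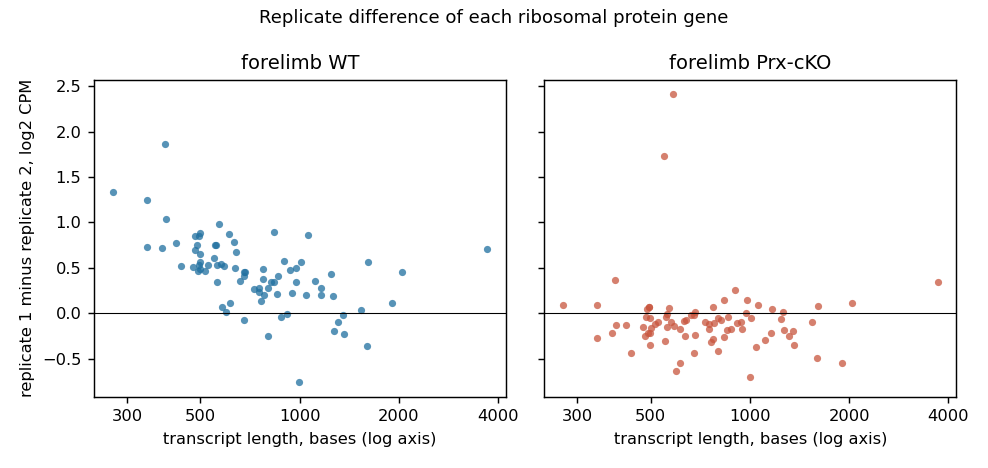
Log2 difference between replicate 1 and replicate 2 (y axis) against transcript length in bases (x axis, log scale) for the 81 members, in Wt and in Prx-cKO forelimbs. In Wt the gap narrows from a median of 0.71 in the shortest class to 0.22 in the longest, and in Prx-cKO the class medians lie between −0.12 and −0.10.

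Other parts of the translation machinery were also above 0 in the Prx-cKO forelimb. All 7 elongation factors were higher (median 0.45), with Eef1d, which reloads Eef1a1 with GTP, at 0.76 (adjusted p = 0.387). All 12 chaperones and 5S loading factors were higher (median 0.41), among them Grwd1, which escorts Rpl3, at 0.71, and Mrto4, the stalk placeholder, at 0.60. Of the 30 initiation factors 24 were higher (median 0.24), and of the 16 TOP messages outside the ribosome 15 (median 0.27). Of the 5 ribosome-linked genes outside the rule 4 were higher (median 0.44), with Rack1, a small-subunit scaffold, at 0.54 and Fau at 0.44. Of the 14 mTOR and TOP regulators 9 were higher (median 0.02), with values from −0.40 for Rictor, a scaffold of an mTOR complex, to 0.83 for Eif4ebp1, a translation repressor. The 4 genes of the p53 response to free ribosomal proteins were split (median 0.18). The p53 target Cdkn1a stood at 2.12 (adjusted p = 0.118) and the p53 gene Trp53 at 0.43, while Mdm4 stood at −0.20 and Mdm2 at −0.07. No gene of these lists passed the test, and the lists overlap in part.

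Some lists of cell type markers moved with genotype in the forelimb as well, and others did not. The limb mesenchyme markers summed to 1492 and 1776 CPM in Wt and to 1055 and 1176 CPM in Prx-cKO, with 6 of 8 lower. The skeletal muscle markers summed to 356 and 341 CPM in Wt and to 996 and 457 CPM in Prx-cKO, with 8 of 8 higher. The cell cycle markers summed to 2781 and 3358 CPM in Wt and to 3325 and 3786 CPM in Prx-cKO, overlapping sums with 9 of 11 higher. The endothelial markers were higher in 5 of 5 (114 and 125 CPM, against 156 and 159), and the myeloid markers in 6 of 6 (28.6 and 26.2 CPM, against 51.0 and 44.9). Sums overlapped for the stromal fibroblast markers (1502 and 1447 CPM in Wt, then 1468 and 1398 in Prx-cKO). They also overlapped for the erythroid (5230 and 3841, then 4735 and 4056) and surface ectoderm markers (565 and 717, then 699 and 767). None of these markers passed the test, none was at 0 in all libraries, and the part of tissue makeup in the members' difference was not tested.

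In the cultures, the genotype comparison asked what loss of Impdh2 from the myeloid lineage does, and at R0D3 the members were lower in LysM-cKO, with no single member past the test. All 81 members had a log2 fold change below 0, against 48.1% of all genes, with a median of −0.20 against 0.01. The values ran from −1.40 for Rpl29, which had at most 12 counts in any R0D3 library, to −0.00 for Rps27l. The large subunit (49 of 49 lower) and the small subunit (32 of 32 lower) had a median of −0.20 each.

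edgeR's test called 0 of 81 members, against 0.0143% of all genes, and DESeq2 called 0. At an unadjusted p under 0.05 there were 11 members, all lower (13.6%, against 1.4% of all genes in that direction). With the replicate number as a block, which pairs the culture libraries, 0 members were called (0.0214% of all genes) and 54 had an unadjusted p under 0.05, all lower (66.7%, against 3.99%). The libraries did not overlap for 37 members, all lower in LysM-cKO (45.7%, against 14.8% of all genes). The median ran from −0.35 without LysM-cKO replicate 2 to −0.10 without Wt replicate 2, where 18 members were above 0, and was −0.12 without LysM-cKO replicate 1, where 11 were above 0.

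Rpl34, a large-subunit protein at chr3:130726831-130730398 on the minus strand, had the smallest p. It was at 171 and 191 CPM in the Wt libraries, against 145 and 138 CPM in LysM-cKO, a log2 fold change of −0.36 (SE 0.09, adjusted p = 0.997, and 0.249 with the block). Rpl21, likewise of the large subunit, was at 67.9 and 71.3 CPM in the Wt libraries, against 51.9 and 58.6 CPM in LysM-cKO (log2 fold change −0.33, and −0.23 with the counts of its pseudogenes added). Rpl35a, with a pyrimidine run at 1 of its annotated starts, was at 107 and 112 CPM in the Wt libraries, against 87.6 and 87.0 CPM in LysM-cKO (log2 fold change −0.33). In all 3 the groups did not overlap.

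Of the stalk and 5S proteins, Rplp0 and Rpl5 lay nearer 0 than the members' median of −0.20, and the others lay close to that median. Rplp0 was at 966 and 1133 CPM in the Wt libraries, against 917 and 1151 CPM in LysM-cKO, a log2 fold change of −0.02 with overlapping groups. Rplp1 was at 481 and 501 CPM in the Wt libraries, against 397 and 459.9 CPM in LysM-cKO (log2 fold change −0.20), without overlap. Rplp2 stood at −0.18, Rpl5 at −0.09 and Rpl11 at −0.19, all with overlapping groups. Of the counterparts, Rps27 (−0.45), Rpl22 (−0.29), Rpl7 (−0.30) and Rps4x (−0.24) did not overlap between the groups, while Rpl39 (−0.18), Rpl10 (−0.17) and Rpl3 (−0.07) did. Rps27 had only 32 to 58 counts per culture library, a mean of 2.65 CPM, with 98.6% of its words in other transcripts. With pseudogene counts added, Rpl10 was at −0.23 and Rpl3 at −0.13. The paralogs were at −0.00 for Rps27l, −0.06 for Rpl22l1, −0.15 for Rpl7l1 and −0.58 for Rpl39l.

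By library pair, LysM-cKO replicate 1 lay below Wt replicate 1 by a median of 0.23 and below Wt replicate 2 by 0.43, and LysM-cKO replicate 2 lay below Wt replicate 2 by 0.21. LysM-cKO replicate 2 against Wt replicate 1 gave 0.01, with 44 of 81 members higher. In each of the 4 culture groups the library numbered 2 had the higher member levels, by medians of 0.13 to 0.25, so the genotype difference at R0D3 was about as large as the difference between replicate numbers.

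Among related lists at R0D3, 7 of 7 elongation factors were below 0 (median −0.11), 14 of 16 TOP messages outside the ribosome (median −0.14), 20 of 30 initiation factors (median −0.05, Eif3m at −0.30) and 5 of 5 ribosome-linked genes (median −0.20). The chaperones and 5S loading factors were split, with 6 of 11 above 0 (median 0.01), as were the mTOR and TOP regulators, with 6 of 14 (median −0.06). No gene of these lists passed the test. The cell cycle markers summed to 469 and 612 CPM in Wt and to 572 and 1132 CPM in LysM-cKO, with 11 of 11 higher. The stromal fibroblast markers summed to 1332 and 1160 CPM in Wt and to 1520 and 485 CPM in LysM-cKO, and the neutrophil markers to 418 and 161 CPM in Wt and to 215 and 115 CPM in LysM-cKO. The part of these in the members' values was not tested.

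At R40D3 the median genotype difference of the members lay nearer 0, and no member passed the test. In LysM-cKO 73 of 81 members were below 0, against 51.4% of all genes, with a median of −0.09 against −0.01. edgeR called 0 members, against 0.0143% of all genes (with the block 0, against 0.214%), and DESeq2 called 0. At an unadjusted p under 0.05 there was 1 member (1.23%, against 7.47% of all genes), and with the block 6 (7.41%, against 18.5%). Libraries did not overlap for 15 members, all lower (18.5%, against 18.9% of all genes), a share at the background. Without LysM-cKO replicate 1 the median was 0.03 with 57 of 81 members above 0, and without LysM-cKO replicate 2 it was −0.22.

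Rpl39l had the smallest p at R40D3, at 4.55 and 4.70 CPM in the Wt libraries, against 3.12 and 1.79 CPM in LysM-cKO, a log2 fold change of −0.89 (SE 0.33, adjusted p = 0.648, and 0.213 with the block). Rpl34 was at 172 and 173 CPM in the Wt libraries, against 152 and 163 CPM in LysM-cKO (log2 fold change −0.13). Rpl27 was at 10.2 and 10.9 CPM in the Wt libraries, against 7.19 and 9.92 CPM in LysM-cKO (log2 fold change −0.31). Leaving out LysM-cKO replicate 1 gave −0.06, and leaving out replicate 2 of that genotype gave −0.57. Rpl39l, Rpl34 and Rpl27 were lower in both LysM-cKO libraries. The stalk proteins were at 0.03 (Rplp0), −0.09 (Rplp1) and −0.11 (Rplp2), and the 5S proteins at −0.03 (Rpl5) and −0.07 (Rpl11). The paralog Rpl22l1 stood at 0.12, Rps27l at −0.10 and Rpl7l1 at −0.12, and the 7 counterparts lay between −0.08 and 0.00. Of the elongation factors 6 of 7 and of the chaperones and 5S loading factors 10 of 11 were below 0 (medians −0.15 and −0.14), and none passed the test. The osteoclast markers summed to 26473 and 38999 CPM in Wt and to 13272 and 24987 CPM in LysM-cKO, with 11 of 11 lower. None of these markers passed the test, and with the block Oscar and Car2 were called lower, as were 0.0927% of all genes. The neutrophil markers were lower in 6 of 6 (532 and 123 CPM in Wt, then 195 and 85.4 in LysM-cKO), and the stromal fibroblast markers in 4 of the 5 tested (1551 and 1477 CPM, then 1400.1 and 411). The cell cycle markers were higher in 9 of 11 (350.1 and 333 CPM, then 367 and 575). The part of these cell types in the members' values was not tested.

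Whether the genotype effect was the same in both culture states was tested as an interaction, the value at R40D3 minus that at R0D3. edgeR called 0 of 81 members and 0 of all genes (0%), also with the block. Of the members 74 had a positive interaction, against 47% of all genes (median 0.11, against −0.02 over all genes), and 0 had an unadjusted p under 0.05, against 1.77% of all genes. With the block 5 members did, all with positive values (6.17%, against 2.52%). DESeq2 was also run and gave 0 calls among the members. The smallest p were those of Rps23 (0.53), Rpl21 (0.27) and Rpl30 (0.26), and Rpl21 was at 0.18 with pseudogene counts added. Without LysM-cKO replicate 2 at R40D3 the median was −0.00, and without LysM-cKO replicate 1 there it was 0.26.

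The comparison of R40D3 with R0D3 asked how the messages differ between the culture states within a genotype. The same R40D3 and R0D3 libraries enter the genotype comparisons above, so the values are given side by side. In Wt the members were split, with 45 of 81 above 0 (51.2% of all genes) and a median of 0.02, while all 11 osteoclast markers rose. edgeR called 0 members, against 16.9% of all genes, with 1 member at an unadjusted p under 0.05 (1.23%, against 30.3%), and DESeq2 called 0. With the block 5 members were called, all higher (6.17%, against 16.7% of all genes): Rplp0 (0.34, adjusted p = 0.0154), Rps16 (0.33), Rpsa (0.30), Rpl23a (0.22) and Rpl18 (0.22). Libraries did not overlap for 12 members higher at R40D3 (14.8%, against 32.9%) and 12 lower (14.8%, against 29.2%), shares below the background. The median was −0.10 with 21 of 81 members above 0 without R40D3 Wt replicate 2, and 0.13 with 63 above 0 without R0D3 Wt replicate 2.

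Rps29, a small-subunit protein, had the smallest p in Wt, at 3.67 and 3.48 CPM at R0D3 and 6.33 and 5.56 CPM at R40D3, a log2 fold change of 0.73 (SE 0.31, adjusted p = 0.154). It was called when only the 4 Wt libraries were fitted (adjusted p = 0.0483). Rplp0 was at 966 and 1133 CPM at R0D3 and at 1246 and 1417 CPM at R40D3. Rpl23a was at 299.8 and 321 CPM at R0D3 and at 345 and 376 CPM at R40D3. Rplp0 and Rpl23a, highly counted in the cultures, were higher in both R40D3 libraries than in both R0D3 libraries. The 5S proteins had values below 0, with Rpl5 at −0.12 and Rpl11 at −0.20. Rps13, at 0.55, became −0.06 when the counts of its pseudogenes were added.

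In LysM-cKO, 73 of 81 members were above 0 at R40D3, against 51.2% of all genes, with a median of 0.15. edgeR called 1 member, Rps23, as higher (1.23%, against 6.99% of all genes), and 4 members had an unadjusted p under 0.05, all higher (4.94%, against 14.4%). Rps23, a protein of the decoding centre at chr13:90922958-90924950 on the plus strand, was at 5.69 and 6.0 CPM at R0D3 and at 9.78 and 10.1 CPM at R40D3. It rose by 0.77 on the log2 scale, 1.70-fold (SE 0.17, adjusted p = 0.0336). In Wt it was at 7.28 and 9.20 CPM at R0D3 and at 9.20 and 10.1 CPM at R40D3. Of its words 51.7% occur in other transcripts, and with pseudogene counts added its log2 fold change was 0.64 (adjusted p = 0.0556). Its adjusted p was 0.0503 with DESeq2.

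With the block 12 members were called in LysM-cKO, all higher (14.8%, against 13% of all genes): among them were Rps23 (adjusted p = 0.0101), Rplp0 (0.39, adjusted p = 0.0116), Rpsa, Rpl23a, Rps9, Rpl19, Rpl18, Rps16, Rpl36, Rpl14 and Rps26. Libraries did not overlap for 21 members, all higher at R40D3 (25.9%, against 27.3% of all genes), near the background. The 5S proteins stood at −0.06 (Rpl5) and −0.08 (Rpl11), both smaller in size than the members' median SE of 0.15. Among the paralogs and counterparts, Rps27, with 32 to 58 counts per culture library, stood at 0.53 and Rpl22l1 at 0.39, and neither passed the test. Without R40D3 LysM-cKO replicate 2 the median was −0.01 with 38 of 81 members above 0, and without R0D3 LysM-cKO replicate 2 it was 0.30.

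Markers of other cell types and of the cell cycle moved between the culture states as well. From R0D3 to R40D3 the cell cycle markers were lower in 11 of 11 in both genotypes, with 1 called in each and with the block 2 in Wt and 6 in LysM-cKO. Their summed levels went from 469 and 612 CPM to 350.1 and 333 CPM in Wt and from 572 and 1132 CPM to 367 and 575 CPM in LysM-cKO. The macrophage markers were lower in 6 of 7 in Wt, with 1 called (5 with the block), and in 5 of 7 in LysM-cKO, with 2 called. Of all genes, 5.52% were called lower in Wt and 3.15% in LysM-cKO, and with the block 11.6% and 8.22%. The part of these in the members' values was not tested.

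Some genes of the related lists passed the test between the culture states. In Wt 11.4% of all genes were called higher and 5.52% lower, and with the block 16.7% and 11.6%. In LysM-cKO these shares were 6.99% and 3.15%, and with the block 13% and 8.22%. In Wt, 3 of 11 chaperones and 5S loading factors rose, Rrs1, which loads the 5S particle, by 0.72 (adjusted p = 0.0084), Grwd1 by 0.72 and Nip7 by 0.36, and with the block 6 were called higher. The cap-binding factor Eif4e rose by 0.63 (adjusted p = 0.0193), 1 of 30 initiation factors, a share below the background, while with the block 8 were called higher and 1 lower. Of the 14 mTOR and TOP regulators 2 rose, Eif4ebp1 by 1.08 and the TOP-binding protein Larp1 by 0.36 (3 higher with the block). Of the 4 genes of the p53 response to free ribosomal proteins Cdkn1a fell by 0.56 (adjusted p = 0.0325), and with the block Mdm4 was also called, at 0.28. In LysM-cKO Eif4ebp1 rose by 0.80 (adjusted p = 0.0300), and no chaperone or initiation factor passed the test. With the block 2 of 11 chaperones and 5S loading factors and 4 of 30 initiation factors were called higher, and Cdkn1a was called lower (−0.46). No elongation factor or TOP message outside the ribosome passed in either genotype without the block. With it 3 of 7 elongation factors and 3 of 16 TOP messages were called in Wt and 2 and 4 in LysM-cKO, all higher, and the lists share genes.

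Members with and without a pyrimidine run at the annotated start had similar values in most comparisons. In forelimb the medians were 0.34 for the 13 with a run and 0.37 for the 48 matched members without one, and at R0D3 −0.20 for both. For R40D3 against R0D3 they were 0.10 and 0.02 in Wt and 0.18 and 0.14 in LysM-cKO. At R40D3 the genotype values were −0.12 and −0.08. These sets were described and not tested against each other.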

How the data were processed

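RNA sequencing libraries from 4 forelimb and 8 culture samples were deposited as raw counts per gene. The deposited counts are whole numbers that the authors did not normalize, as the values show. The submitters' processing notes name FastQC 0.11.2, Trimmomatic 0.36, HISAT2 2.1.0, DESeq2 1.12.4 and the build GRCm38; the counting program, the annotation, the strand setting and the handling of reads that match several places are not given in the sources used here. The forelimb counts are in 1 table and the cultures in 1 table per replicate number.

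Identifiers were matched to GENCODE M21 (99.6% in forelimb, 99.5% in the cultures). Groups follow the titles. Genes were filtered with filterByExpr, scaled by TMM and tested with edgeR's quasi-likelihood test (edgeR 4.0.16, limma 3.58.1, R 4.3.3) on group means, in the 4 forelimb libraries and in the 8 culture libraries together, with Benjamini-Hochberg adjustment over all genes tested and a threshold of 0.05. Levels are TMM-scaled CPM, fold changes are log2. The same code was tested on simulated counts. Alternatives were other scalings, no filter, DESeq2 1.42.0, the older edgeR likelihood, a replicate block, each library left out, pseudogene counts added and only the 4 compared libraries. Over all genes, same-numbered culture libraries deviated together (r from 0.343 to 0.609 in the 6 pairs of groups), so the block is given beside culture results that it changes.

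No 2 libraries of a group matched within counting noise, and p-values measure only the spread between these samples, which may be technical. A transcript's shared percent is the share of its 50-base words found in transcripts of other genes, over 1 chosen transcript per gene. Members, lists and tests were chosen with earlier results of these data known. Named members were, per comparison, the largest called changes or the 3 smallest p, plus the paralogs and their counterparts, the 5S and stalk proteins and the extremes of level per length; others are named where a count of 5 or fewer or a group required it, after their values were seen. Some values of single genes are not reported here; counts over members and lists include all of them.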

Additional observations from a re-analysis of the deposited data

Results flagged for a closer look

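At R40D3 10 members and at R0D3 21 were wholly lower in LysM-cKO cultures and wholly higher in Prx-cKO forelimbs. Of the 81 members, 45 were wholly higher in forelimb (55.6%, against 22.2% of all genes). Wholly lower were 15 at R40D3 (18.5%, against 18.9%) and 37 at R0D3 (45.7%, against 14.8%). The share of all genes with opposite directions was not computed, so no result about single members is drawn. Some of the 10 and 21 members are given here. The difference between the tissues was not tested, because the tables were fitted separately, and no value in either tissue passed the test. At R40D3 Rpl27 stood at −0.31 in the cultures and 0.62 in forelimb (log2 fold changes), and Rpl7l1 at −0.12 and 0.29. Without LysM-cKO replicate 1 the R40D3 values of Rpl27 and Rpl7l1 were −0.06 each. At R0D3 the stalk protein Rplp1 stood at −0.20 and 0.60, Rps14 at −0.24 and 0.47, Rps4x at −0.24 and 0.44, and Rpl7 at −0.30 and 0.28. Rps23 stood at −0.49 and 0.32 there, Rpl23a at −0.20 and 0.20, Rps15 at −0.25 and 0.33, and Rpl7l1 at −0.15 and 0.29.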

How the results depend on the processing

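With 2 libraries per group, 1 library can decide a value, and the depth limits members under 10 CPM in the cultures. In forelimb the number of members called was 1 with DESeq2 and ran from 0 to 5 when each library was left out, and the median ran from 0.12 to 0.55. With library size alone the forelimb median was 0.25 with 73 of 81 members above 0, where the median of all genes moved by −0.10. With the replicate block in forelimb, where the pairing of 2 numbers cannot be settled (r = 0.261), the median was 0.38 with 0 members called. For R40D3 against R0D3 in Wt, the block gave 5 calls and the fit of only the 4 compared libraries 1. In LysM-cKO the block gave 12, and DESeq2, added pseudogene counts, the 4 libraries alone and leaving out any 1 library gave 0. The block changed no other call among the members. The R40D3 Wt share of counts was 2.26% with pseudogenes added, and the share of members with a run was 46% within 5 bases of the start. When libraries were left out, signs changed, among other values of the paralogs, for Rpl22l1 (−0.40 to 0.30) and Rpl39l (−2.01 to 0.011) in forelimb, Rps27l at R40D3 (−0.27 to 0.056), Rpl22l1 at R0D3 (−0.38 to 0.17), Rpl39l in Wt (−0.087 to 0.64) and Rps27l in LysM-cKO (−0.24 to 0.082), the last 2 for R40D3 against R0D3; the cause was not tested. Of the other named members, 123 of 676 left-out values and 20 of 1255 other values changed sign.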
